A study of Mus musculus with 8 samples.

Results

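The 10 genes followed here mark white blood cells in general or macrophages in particular, and were measured in RNA from the colonic epithelium of mice: Ptprc, Laptm5, Vav1, Lcp1, Itgax, Itgam, Cd68, Csf1r, Adgre1 and C1qa. They were chosen by gene symbol, and all 10 were found among the 35963 gene symbols of the table and passed the filter on low counts, which left 15893 genes tested. The study compared 2 groups of 4 libraries of colonic epithelial cells, released with a cell-dissociating buffer from the proximal colon of mice aged 4 weeks. In both groups the 2 copies of Ccna2, the gene of cyclin A2, were floxed (Ccna2 fl/fl), that is, flanked by sites that Cre recombinase cuts. The libraries labelled Ccna2-KO (genotype label Ccna2-/-, called the KO-labelled libraries from here on) came from mice that also carried vil-Cre, in which the villin promoter limits Cre to intestinal epithelium and leaves blood cells without it. The control libraries came from Ccna2 fl/fl mice without Cre and carry the genotype label wild type. Whether the 4 libraries of a group are 4 different mice is not in the labels, and the p-values therefore describe library-to-library spread, which may be technical.

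Leukocytes reach an epithelial isolate mainly as intraepithelial lymphocytes, T cells that lie between the epithelial cells, and as macrophages of the underlying tissue. Ptprc encodes CD45, a membrane phosphatase present on nearly all nucleated blood cells. Laptm5 (a lysosomal protein), Vav1 (a signalling protein downstream of antigen receptors) and Lcp1 (the actin-bundling L-plastin) are also broadly expressed in blood cells. Csf1r, the receptor of the growth factor CSF1, Adgre1 (the F4/80 antigen) and C1qa (a chain of complement C1q) are typical of tissue macrophages, while Cd68, a lysosomal membrane glycoprotein, is high in macrophages but is not limited to them. Itgam and Itgax encode the integrin chains CD11b and CD11c, found on myeloid cells, and CD11c also on dendritic cells and on some intraepithelial T cells.

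The libraries held 25960180 to 33028486 counts assigned to gene symbols, so that 3 counts, taken as the limit of detection, equal 0.0899 to 0.120 CPM, the count scaled to library size after TMM normalisation. Epcam, a marker of epithelial cells, averaged 1884 CPM in the controls and 1928 CPM in the KO-labelled libraries, against 25.4 and 4.13 CPM for Ptprc. The targeted gene itself did not separate the groups: Ccna2 lay between 11.9 and 54.3 CPM in the controls and between 16.2 and 26.6 CPM in the KO-labelled libraries, and the exons that the Cre sites flank are not named in the labels. Every direction below therefore rests on the labels. The labels also give each library a number, without saying what the numbers stand for. Here the numbers were split at their largest gap, a grouping that the labels do not make. The low set (595 to 598) holds 3 controls and Ccna2-KO replicate 4. The high set (621 to 641) holds Ccna2-KO replicates 1 to 3 with control replicate 1. A fit with a term for this set is given beside the results that it changes.

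The sequences upstream of transcript starts are shown because 5 of the 10 genes fell in the KO-labelled libraries. Blood-cell promoters are also known for binding sites of PU.1 (gene Spi1) and related ETS factors. From RefSeq (GRCm38.p6), 9 promoter windows were used, for 7 of the 10 genes and without C1qa, Csf1r and Adgre1. Each ran from 250 bases before to 50 bases after a transcript start. The 2 motifs GAGGAA (a PU.1 core) and AGGAAGT (a longer ETS core) were searched on both strands, and they overlap where the letters GAGGAAGT occur. GAGGAA was present in 5 of the 9 windows and in 28.3% of all 32851 windows of that length, and AGGAAGT in 3 of the 9 windows and in 9.35% of all. The 3 windows belong to 2 genes, since the 2 Ptprc windows overlap and share 1 of these matches. The 250 bases before the start are printed for 3 genes that fell in the KO-labelled libraries (Ptprc, chr1:138175306-138175555, minus strand; Laptm5, chr4:130913066-130913315, plus strand; Vav1, chr17:57278850-57279099, plus strand), for the gene that rose (Cd68, chr11:69666171-69666420, minus strand) and for a gene that did neither (Itgam, chr7:128062390-128062639, plus strand). Capitals mark the motifs and their reverse complements. The starts used for Ptprc and Laptm5 are internal ones, so both printed stretches lie inside the gene spans given below.
Ptprc: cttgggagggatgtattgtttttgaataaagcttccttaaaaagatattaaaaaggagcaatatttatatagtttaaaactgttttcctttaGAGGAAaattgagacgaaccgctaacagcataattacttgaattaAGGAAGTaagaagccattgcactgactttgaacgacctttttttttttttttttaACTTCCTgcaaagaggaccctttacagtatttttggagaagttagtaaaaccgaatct
Laptm5: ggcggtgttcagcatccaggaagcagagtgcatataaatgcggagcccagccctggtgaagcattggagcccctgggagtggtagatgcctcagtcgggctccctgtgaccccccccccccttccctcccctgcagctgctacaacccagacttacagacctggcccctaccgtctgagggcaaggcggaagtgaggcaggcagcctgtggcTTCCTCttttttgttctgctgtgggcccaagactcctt
Vav1: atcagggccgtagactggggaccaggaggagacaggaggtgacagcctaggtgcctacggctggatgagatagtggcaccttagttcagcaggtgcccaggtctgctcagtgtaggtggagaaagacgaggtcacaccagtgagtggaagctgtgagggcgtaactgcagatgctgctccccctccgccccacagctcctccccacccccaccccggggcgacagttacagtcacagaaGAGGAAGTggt
Cd68: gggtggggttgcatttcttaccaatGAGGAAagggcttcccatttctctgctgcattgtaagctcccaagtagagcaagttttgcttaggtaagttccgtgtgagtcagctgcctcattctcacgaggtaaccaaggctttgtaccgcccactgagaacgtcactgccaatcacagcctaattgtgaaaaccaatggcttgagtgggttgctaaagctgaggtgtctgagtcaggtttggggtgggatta
Itgam: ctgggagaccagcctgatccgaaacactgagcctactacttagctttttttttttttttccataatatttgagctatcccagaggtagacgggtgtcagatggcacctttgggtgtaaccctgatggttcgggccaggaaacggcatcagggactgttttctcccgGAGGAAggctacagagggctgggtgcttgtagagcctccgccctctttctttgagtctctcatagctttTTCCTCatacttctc

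In Vav1 both motifs overlap in one stretch whose first base lies 11 bases before the start. In Ptprc, AGGAAGT occurs on the plus strand of the gene 113 bases and on the minus strand 58 bases before this start, and GAGGAA 158 bases before it. Laptm5 has GAGGAA on the minus strand 38 bases before the internal start used. Cd68 and Itgam also hold GAGGAA, 225 and 84 bases before their starts on the plus strand, so the letters were found in genes of each direction. Neither motif was in the windows of Itgax and Lcp1. Whether a factor binds there was not measured.

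Of the 10 genes, 5 fell and 1 rose in the KO-labelled libraries. The 5 that fell were Ptprc, Laptm5, Vav1, Lcp1 and Itgax, with log2 fold changes of -2.63 to -0.97, and the 1 that rose was Cd68, with 1.13. Over all genes tested the same test (edgeR's quasi-likelihood F test, adjusted p under 0.05) called 5.71% lower and 6.40% higher. In 4 of the 10 all KO-labelled libraries lay below all controls, and in 1 all lay above, against 9.60% and 9.41% of all genes tested. The median log2 fold change of the 10 was -0.73, beside -0.01 over all genes tested. In bulk RNA, fewer cells of a type and less RNA per cell cannot be told apart.

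**Figure D1:**
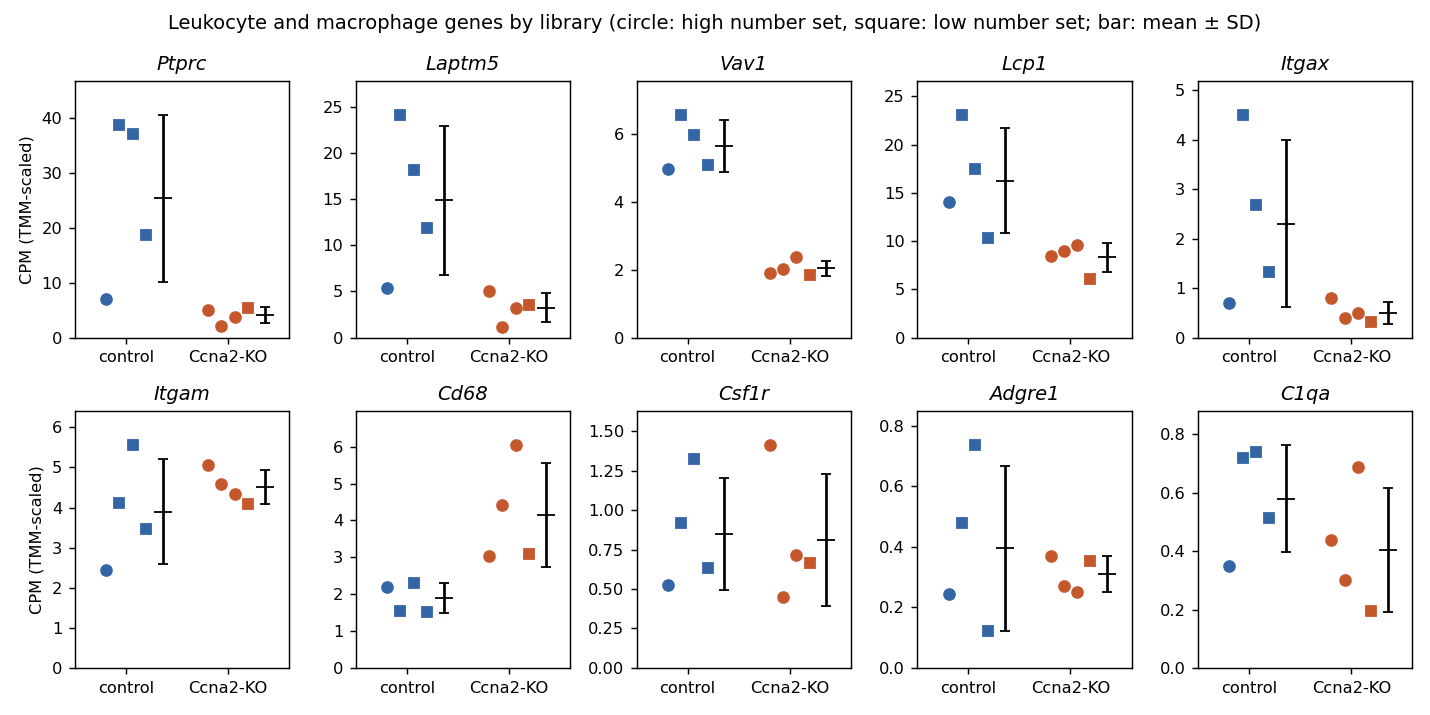
CPM of the 10 genes (vertical axes, each from 0) in the 4 control and 4 Ccna2-KO libraries, with the mean and SD of each group beside the points. Circles are libraries of the high number set and squares of the low set; Ptprc, Laptm5, Vav1 and Lcp1 are lower and Cd68 is higher in every Ccna2-KO library than in every control, while the other 5 genes overlap.

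Ptprc (chromosome 1, 138062859 to 138175756, GRCm38, minus strand, 33 exons in its longest coding transcript) showed the largest fall of the 10. Its level was 7.07, 38.7, 37.2 and 18.8 CPM in control replicates 1 to 4 and 5.09, 2.19, 3.81 and 5.45 CPM in Ccna2-KO replicates 1 to 4. Control replicate 1 was the lowest control by far and lay close to the KO-labelled libraries, but the groups did not overlap. The means were 25.4 ± 15.2 and 4.13 ± 1.48 CPM (SD, n = 4 each), a log2 fold change of -2.63 ± 0.51 (SE; edgeR adjusted p = 0.0114). The call held without any 1 of the 8 libraries, with log2 fold changes of -2.94 to -2.35 and adjusted p of 0.000731 to 0.0439. With the number set in the fit the change was -1.74 ± 0.50 (adjusted p = 0.0493). With replicate number in the fit instead, the change was -2.43 ± 0.60 and the call ended (edgeR adjusted p = 0.0618). Within the low set the controls had 18.8 to 38.7 CPM and Ccna2-KO replicate 4 had 5.45 CPM, and within the high set the control had 7.07 CPM and the others 2.19 to 5.09 CPM.

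Laptm5 (chromosome 4, 130912890 to 130936148), whose product promotes the turnover of antigen receptors in lysosomes, had the same order of the controls as Ptprc. The controls held 5.40, 24.1, 18.1 and 11.9 CPM and the KO-labelled libraries 5.05, 1.20, 3.21 and 3.49 CPM. Control replicate 1 and Ccna2-KO replicate 1 nearly touched. The means were 14.9 ± 8.06 and 3.24 ± 1.58 CPM (log2 fold change -2.20 ± 0.51, edgeR adjusted p = 0.0225). The call ended with the set term (-1.56 ± 0.60, adjusted p = 0.112), without control replicate 2 (adjusted p = 0.0574), without control replicate 3 (0.0567) and without Ccna2-KO replicate 3 (0.0700). A second RefSeq gene, Gm38599, overlaps Laptm5, and the labels do not say whether counting used strand.

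Vav1 (chromosome 17, 57279100 to 57329236) separated the groups with little spread within either. Its level was 4.98, 6.58, 5.97 and 5.09 CPM in the controls and 1.92, 2.04, 2.37 and 1.84 CPM in the KO-labelled libraries. Control replicate 1, low for Ptprc and Laptm5, was here close to control replicate 4. The means were 5.66 ± 0.760 and 2.04 ± 0.233 CPM (-1.46 ± 0.18, edgeR adjusted p = 0.00172). The adjusted p stayed between 0.000433 and 0.00995 without any 1 of the libraries, and the change with the set term was -1.44 ± 0.21 (adjusted p = 0.00209). Vav1 is also expressed by tuft cells, chemosensory cells of the epithelium. Of 14 tuft cell markers 11 were tested, of which 6 fell and 0 rose (median -1.37); Trpm5, a cation channel, changed by -2.75 ± 0.33 (edgeR adjusted p = 0.00143). Their summed level was 26.1 to 45.3 CPM in the controls and 18.9 to 22.7 CPM in the KO-labelled libraries, none of the 14 was at 0 over all libraries, and their part in the Vav1 result was not tested. With the set term 9 of the 11 were lower.

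Lcp1 (chromosome 14, 75131105 to 75230842) fell less. The controls held 14.1, 23.1, 17.5 and 10.3 CPM and the KO-labelled libraries 8.49, 8.96, 9.64 and 6.12 CPM. The lowest control, replicate 4, lay just above the highest Ccna2-KO library. The means were 16.3 ± 5.43 and 8.30 ± 1.53 CPM (-0.97 ± 0.25, edgeR adjusted p = 0.0347). The call held with the set term (-1.04 ± 0.30, adjusted p = 0.0417) and without control replicate 1 or control replicate 4 (adjusted p = 0.0164 and 0.0207). Without any 1 of the other 6 libraries the log2 fold change was -1.04 to -0.75 and the adjusted p did not pass: 0.0803 and 0.0828 without control replicates 2 and 3, and 0.0877, 0.0809, 0.0690 and 0.0752 without Ccna2-KO replicates 1 to 4. It did not pass in limma voom either (adjusted p = 0.0542).

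Itgax (chromosome 7, 128129526 to 128150657) was low in all libraries. The counts were 20, 113, 87 and 44 in the controls and 24, 13, 16 and 8 in the KO-labelled libraries, or 0.697, 4.51, 2.68 and 1.33 CPM against 0.809, 0.390, 0.499 and 0.314 CPM. Control replicate 1 lay below Ccna2-KO replicate 1, so the groups overlapped. The log2 fold change was -2.17 ± 0.57 (edgeR adjusted p = 0.0372), and p was 0.0571 in an exact permutation test (two-sided, on log2 CPM), whose minimum with 4 libraries a group is 0.0286. The call held without control replicate 1 (adjusted p = 0.00359) and ended without any 1 of the other 7 libraries (adjusted p = 0.0501 to 0.110), with the set term (-1.60 ± 0.73, adjusted p = 0.162) and in limma voom (adjusted p = 0.0741).

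Of Itgam, Cd68, Csf1r, Adgre1 and C1qa, none was called lower. Itgam (chromosome 7, 128062640 to 128118491), the chain CD11b that pairs with the Itgb2 product, had 2.44, 4.11, 5.57 and 3.45 CPM in the controls and 5.05, 4.59, 4.34 and 4.08 CPM in the KO-labelled libraries. Every KO-labelled library lay within the range of the controls. The means were 3.89 ± 1.31 and 4.51 ± 0.415 CPM (0.21 ± 0.25, edgeR adjusted p = 0.648). Itgb2, the shared beta chain of CD11a, CD11b and CD11c, was among the genes that fell, from 3.48 to 0.821 CPM (-2.09 ± 0.51, adjusted p = 0.0293; set-adjusted -1.54, adjusted p = 0.0743).

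Cd68 (chromosome 11, 69664213 to 69666170) was the gene that rose. Its level was 2.20, 1.56, 2.31 and 1.51 CPM in the controls and 3.03, 4.41, 6.05 and 3.10 CPM in the KO-labelled libraries, from 39 to 75 and 79 to 194 counts. All 4 KO-labelled libraries lay above all controls, and Ccna2-KO replicate 3 was the highest. The means were 1.89 ± 0.416 and 4.15 ± 1.42 CPM (1.13 ± 0.28, edgeR adjusted p = 0.0313). Within the low set the controls had 1.51 to 2.31 CPM and Ccna2-KO replicate 4 had 3.10 CPM, and within the high set the control had 2.20 CPM and the others 3.03 to 6.05 CPM. The call ended with the set term (0.91 ± 0.30, adjusted p = 0.0601). It also ended without control replicate 2, 3 or 4 (adjusted p = 0.0832, 0.0517 and 0.0888) and without Ccna2-KO replicate 2 or 3 (0.0857 and 0.0889).

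The 3 most specific macrophage genes had few counts. C1qa (chromosome 4, 136895916 to 136898844) held 10, 18, 24 and 17 counts in the controls and 13, 10, 22 and 5 in the KO-labelled libraries, a log2 fold change of -0.50 ± 0.41 (edgeR adjusted p = 0.494). The ratio of its summed counts, scaled by library size, was 0.717, with a 95% counting interval of 0.488 to 1.05 that covers counting error only. Csf1r (chromosome 18, 61105572 to 61131139) held 15, 23, 43 and 21 counts in the controls and 42, 15, 23 and 17 in the KO-labelled libraries (-0.07 ± 0.42, adjusted p = 0.941; ratio 0.941, interval 0.705 to 1.25). Adgre1 (chromosome 17, 57358581 to 57483529) held 7, 12, 24 and 4 counts and 11, 9, 8 and 9 counts (-0.35 ± 0.50, adjusted p = 0.719; ratio 0.779, interval 0.492 to 1.22). For all 3 the groups overlapped. The lower ends of the 3 counting intervals lay above the corresponding ratios of Ptprc (0.160), Laptm5 (0.217), Itgax (0.229) and Vav1 (0.366). The ratio of Lcp1 (0.531), which also fell, lay inside the intervals of C1qa and Adgre1 and below that of Csf1r. These intervals leave out the spread between libraries. Csf1r and Adgre1 each overlap 2 other RefSeq genes.

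**Figure D2:**
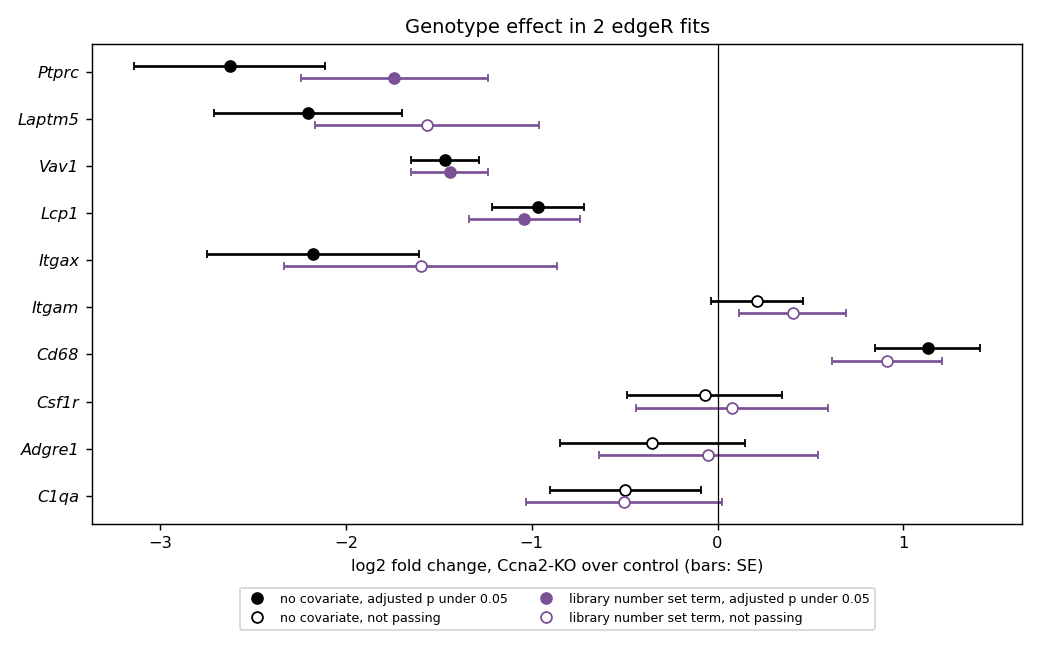
Log2 fold change of each gene (horizontal axis; negative is lower in Ccna2-KO) with its SE, in the edgeR fit without a covariate (black) and with the library number set as a term (purple); filled points pass an adjusted p of 0.05. Ptprc, Vav1 and Lcp1 pass in both fits, and Laptm5, Itgax and Cd68 pass in the fit without the term and not in the other.

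With the set term, 3 of the 10 genes were lower and 0 higher, where that fit called 8.90% of all genes lower and 9.29% higher. DESeq2 gave 5 lower and 1 higher and limma voom 3 lower and 1 higher. The share called over all genes is not given here for these tools or for the fits with a library left out. Leaving out single libraries gave 2 (without control replicate 2, control replicate 3 or Ccna2-KO replicate 3) to 5 (without control replicate 1) lower, with 3 without Ccna2-KO replicate 1, 2 or 4 and 4 without control replicate 4. Cd68 was called without control replicate 1, Ccna2-KO replicate 1 or Ccna2-KO replicate 4.

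**Figure D3:**
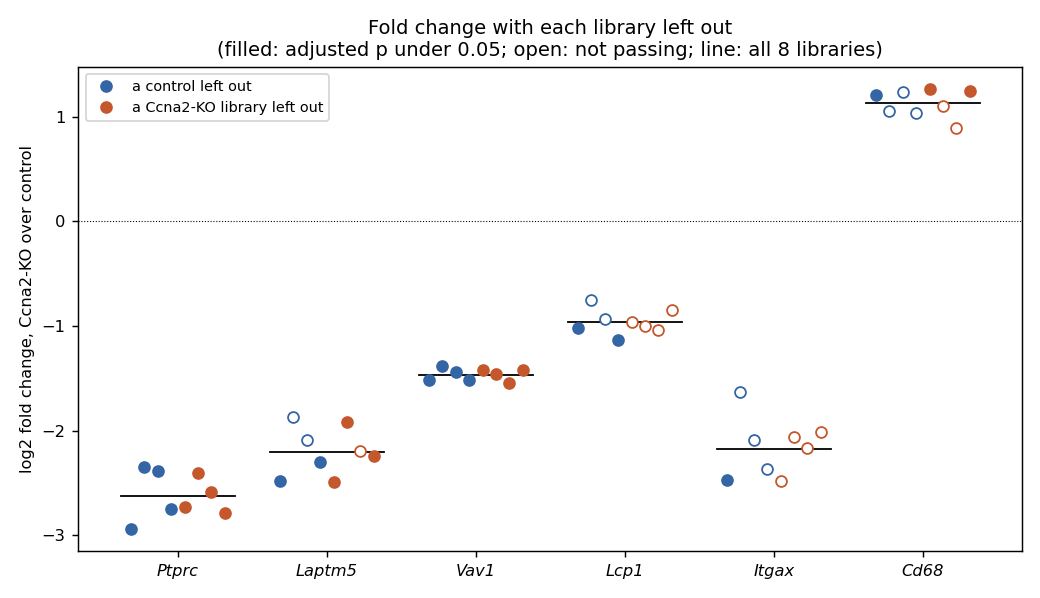
Log2 fold changes (vertical axis) of the 6 genes that passed, each point with 1 library left out (blue a control, orange a Ccna2-KO library); lines mark the value from all 8 libraries, filled points pass an adjusted p of 0.05. All 8 points are filled for Ptprc and Vav1, 5 for Laptm5, 3 for Cd68, 2 for Lcp1 and 1 for Itgax, and no point crosses 0.

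The levels of the other 9 genes were also set against Ptprc in the same library. The difference of log2 CPM between Cd68 and Ptprc was -1.66, -4.58, -3.97 and -3.58 in the controls and -0.73, 0.99, 0.66 and -0.80 in the KO-labelled libraries, so Cd68 passed Ptprc in 2 libraries, Ccna2-KO replicates 2 and 3. The groups did not overlap for Cd68, Itgam, Csf1r and Adgre1, with mean shifts of 3.47, 2.67, 2.31 and 2.31 (log2; exact two-sided permutation p = 0.0286 each, 0.0643 after Benjamini-Hochberg adjustment over the 9 genes compared with Ptprc). C1qa shifted by 1.89 (exact permutation p = 0.0571, adjusted 0.103). Laptm5 and Itgax shifted by 0.26 and 0.58 (exact permutation p = 0.314 and 0.200), Vav1 by 0.97 (p = 0.143) and Lcp1 by 1.48 (p = 0.0857). None passed the adjusted threshold, which 4 libraries a group could reach only if at least 6 of the 9 genes had the smallest p, and this comparison was chosen after the values of the genes were seen. Ptprc itself fell, so a gene that did not change shifts upward against it by construction. The shifts and their p-values are therefore not independent of the fall of Ptprc.

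**Figure D4:**
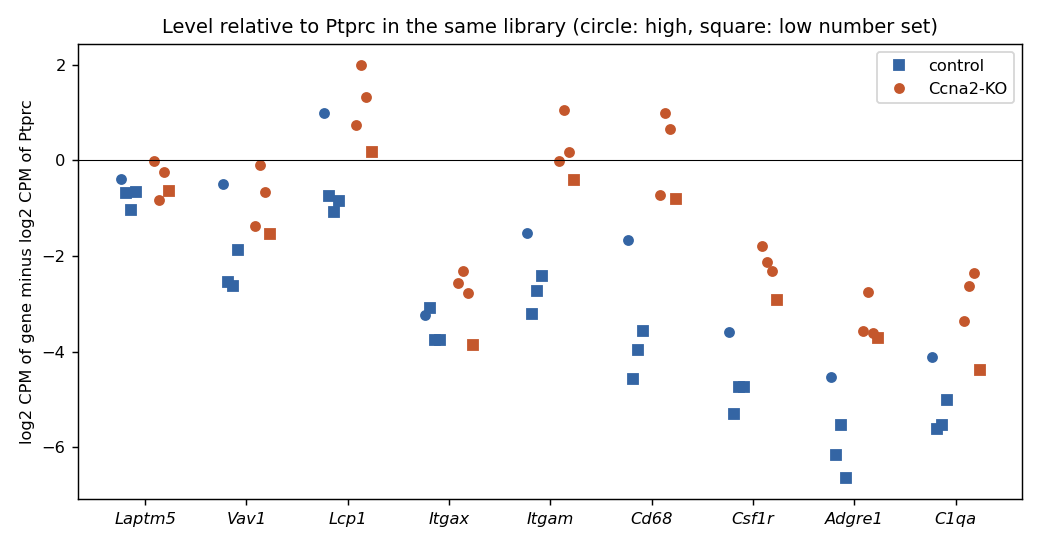
Difference of log2 CPM between each gene and Ptprc in the same library (vertical axis), controls in blue and Ccna2-KO in orange, circles for the high and squares for the low number set. Ptprc itself fell, which raises the difference for any unchanged gene. Cd68, Itgam, Csf1r and Adgre1 lie higher in all 4 Ccna2-KO libraries than in all controls, while Laptm5 and Itgax overlap; in each of these 4 genes control replicate 1 (blue circle) is the control nearest to the Ccna2-KO libraries.

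Per kilobase of the longest coding transcript, the order of mean levels in the controls was Laptm5 (5.72 CPM per kb), Ptprc (5.02), Lcp1 (4.23), Vav1 (1.91), Cd68 (1.54), Itgam (0.831), Itgax (0.569), C1qa (0.558), Csf1r (0.181) and Adgre1 (0.122). The ranges of neighbours in this order overlapped except between Lcp1 and Vav1, Cd68 and Itgam, and C1qa and Csf1r. In the KO-labelled libraries the order per kilobase began with Cd68 (3.37), Lcp1 (2.16) and Laptm5 (1.25), followed by Itgam (0.964), Ptprc (0.815) and Vav1 (0.690). It ended with C1qa (0.390), Csf1r (0.173), Itgax (0.124) and Adgre1 (0.0960), and the ranges of all neighbours overlapped. On this scale Cd68 stood below Laptm5, Ptprc, Lcp1 and Vav1 in the controls and above them in the KO-labelled libraries.

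Across the 8 libraries the 10 genes did not form 1 group. Pearson's r of log2 CPM with Ptprc was 0.98 for Laptm5, 0.93 for Itgax, 0.87 for Vav1 and 0.77 for Lcp1, given as a description of libraries that share a genotype label within each group. It was 0.62 for C1qa, 0.49 for Csf1r, 0.41 for Adgre1, 0.06 for Itgam and -0.81 for Cd68. Csf1r and Adgre1 (r = 0.67), and Csf1r and Itgam (0.63), were closer to each other than to Ptprc. C1qa went the other way. Its r was 0.76 with Itgax, 0.72 with Lcp1 and 0.66 with Laptm5, against 0.52 with Csf1r, 0.29 with Itgam and 0.28 with Adgre1. The genes most like Ptprc over the 8 libraries, among those of moderate or higher level, were Acap1 (r = 0.996; -2.40 ± 0.49, adjusted p = 0.0144), Gimap4 (0.994; -3.06 ± 0.54, adjusted p = 0.00745) and Rac2 (0.993; -2.05 ± 0.39, adjusted p = 0.0106). After removal of the group means these values were 0.988, 0.986 and 0.981. Those most like C1qa were Celf6 (0.930), Dmbt1 (0.926) and Cdkn1c (0.920), none of which passed the genotype test (adjusted p = 0.475, 0.200 and 0.624). C1qa held only 5 to 24 counts in a library, and these were the highest r among many genes over 8 libraries. Whether such values exceed what a search of this size gives by itself was not tested.

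The estimated counts of single transcripts were too uneven to follow isoforms. The table lists 39 transcripts of the 10 genes, of which 17 passed the filter, and edgeR called 0 of them, with 7 lower and 1 higher at an unadjusted p under 0.05. Ptprc, whose variable exons give the CD45RA, RB and RC forms, had 9 transcripts. The most abundant, XM_006529262.3, held 33.2% of the Ptprc counts in the controls and 42.3% in the KO-labelled libraries, and its log2 fold change was -2.26 ± 0.77 (adjusted p = 0.290). For Vav1, NM_011691.4 held 97.7% of the control counts and 55.6% in the KO-labelled libraries, where Ccna2-KO replicate 4 had 0 counts for it and counts for 2 other transcripts. Both Cd68 transcripts had positive values, 1.29 ± 0.36 for NM_001291058.1 and 0.86 ± 0.51 for the non-coding NR_110993.1 (adjusted p = 0.186 and 0.626).

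Other genes of the same cell types were counted from lists. Of 20 further genes expressed across leukocytes, 19 were tested, of which 13 fell and 0 rose, with a median log2 fold change of -1.96. Fyb, an adaptor protein of T cells and myeloid cells, changed by -1.87 ± 0.32 (edgeR adjusted p = 0.00702) and Rac2, a blood-cell GTPase, fell from 8.94 to 2.16 CPM. Spi1, the gene of PU.1, averaged 0.247 and 0.194 CPM and was below the filter. With the set term 6 of the 19 were lower (median -1.43), and leaving out single libraries gave as few as 2 (Ccna2-KO replicate 3 left out) and as many as 16 (control replicate 1 left out). There were 3 without Ccna2-KO replicate 2, 5 without control replicate 3 and 7 without control replicate 2. With replicate number in the fit 1 was lower. Summed over the list, control replicate 1 had 38.6 CPM, the other controls had 53.6 to 118 CPM, and the KO-labelled libraries had 18.7 to 32.0 CPM.

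Further macrophage and monocyte genes were then counted. Of 20, 13 were tested, of which 1 fell (Fcer1g, a signalling chain of Fc receptors that natural killer and some T cells also express, -1.78 ± 0.48, adjusted p = 0.0409) and 1 rose (Mrc1, the mannose receptor CD206, 0.898 to 1.94 CPM, 1.10 ± 0.31, adjusted p = 0.0461), with a median of -0.39. Both calls ended with the set term (adjusted p = 0.111 and 0.0532), in which Cd14 and Ms4a7 were lower. The partner chains C1qb (0.580 and 0.385 CPM, -0.57 ± 0.49, adjusted p = 0.519) and C1qc (0.432 and 0.207 CPM, below the filter) were as scarce as C1qa. In the controls 13 of the 20 averaged under 1 CPM, and none was at 0 over all libraries. The summed level, 282 to 407 CPM in the controls and 240 to 310 CPM in the KO-labelled libraries, came mostly from Ctss (215 and 166 CPM) and Mertk (78.8 and 59.9 CPM). Without control replicate 1, 3 fell, and without any 1 of the other libraries 0 or 1 fell.

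**Figure D5:**
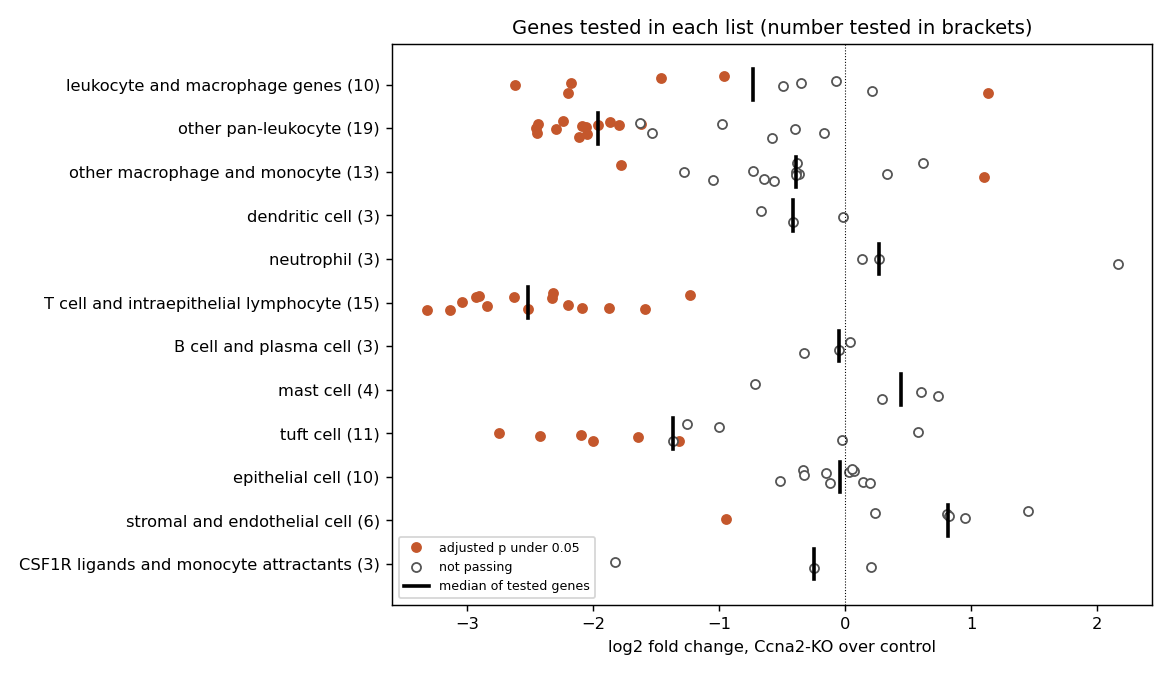
Log2 fold change (horizontal axis) of every tested gene in each list, orange where the adjusted p is under 0.05, with black bars for the median; the number tested stands in brackets. T cell genes (median -2.52) and the further leukocyte genes (-1.96) lie to the left of 0, and epithelial genes (-0.04) around it.

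T cell genes fell too. Of 16 markers of T cells and intraepithelial lymphocytes, 15 were tested and all 15 fell (median -2.52; 12 with the set term), among them Cd2, an adhesion receptor (-2.93 ± 0.43, adjusted p = 0.00353), and Cd3g, a chain of the T cell receptor complex (6.42 to 0.897 CPM, -2.84 ± 0.42, adjusted p = 0.0037). Summed over the list, control replicate 1 had 39.8 CPM, the other controls had 76.3 to 186 CPM, and the KO-labelled libraries had 13.4 to 27.3 CPM, and none was at 0 over all libraries. Leaving out single libraries gave 9 (without Ccna2-KO replicate 3) to 15 lower, and replicate number in the fit gave 5 lower. The part of T cells in the fall of Ptprc, Laptm5, Itgax and Lcp1 was not tested.

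Few markers of other blood cells passed the filter. Among 10 dendritic cell genes 3 were tested and 0 called by edgeR, DESeq2 or limma voom (0 at an unadjusted p under 0.05), and Irf8, the most abundant and also expressed outside these cells, had 107 and 80.0 CPM. Among 10 neutrophil genes 3 were tested and edgeR called 0 (1 at an unadjusted p under 0.05; DESeq2 and limma voom called 1 higher); Ly6g had 10.2 and 45.7 CPM (2.16 ± 0.64, adjusted p = 0.057), while S100a8 and S100a9 held 23 counts each over all 8 libraries and Elane and Ngp none. Among 11 B cell and plasma cell genes 3 were tested and 0 called by any of these tools (1 at an unadjusted p under 0.05), with Blnk at 148 and 118 CPM. Among 9 mast cell genes 4 were tested and edgeR and limma voom called 0 (1 at an unadjusted p under 0.05; DESeq2 called 1 lower), with Kit, which other cells also express, at 41.0 and 24.9 CPM.

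Epithelial and stromal genes and the ligands of the macrophage receptor completed the comparison. None of 10 epithelial genes was called by edgeR, DESeq2 or limma voom (2 at an unadjusted p under 0.05; median -0.04), and Krt8, a keratin, averaged 9114 and 9582 CPM. Of 10 stromal and endothelial genes 6 were tested, with a median of 0.81, and 1 fell, Pecam1 (CD31), which leukocytes also carry (2.52 to 1.31 CPM, -0.94 ± 0.24, adjusted p = 0.0315). The other 5 had positive log2 fold changes that edgeR did not call (Col3a1 1.45, Col1a2 0.95, Dcn 0.82, Col1a1 0.81 and Vwf 0.23, which was -0.23 with the set term), and DESeq2 called 1 higher. Of 8 CSF1R ligands and monocyte attractants 3 were tested and edgeR and limma voom called 0 (1 at an unadjusted p under 0.05; DESeq2 called 1 lower). Csf1 averaged 0.706 and 0.814 CPM (0.20 ± 0.46, adjusted p = 0.836), and Cx3cl1, the ligand of the monocyte receptor CX3CR1, 102 and 85.4 CPM. Il34, the other CSF1R ligand, averaged 1.98 and 0.552 CPM without overlap (-1.83 ± 0.63, adjusted p = 0.0943), and it passed with the set term (-2.53, adjusted p = 0.00486).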

How the data were processed

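RNA sequencing of 8 libraries (4 control, 4 labelled Ccna2-KO) was used. The authors deposited estimated counts for RefSeq transcripts, made with kallisto and GRCm38 (mm10), per the submitters' processing notes. No kallisto version or strand setting was given in the sources used here. Kallisto shares reads that fit several transcripts, so single-transcript values are uncertain.

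Here the transcripts of each symbol were added up and the sums rounded. Transcripts without a symbol (687 of 107193, 3.19% to 5.51% of counts) were left out. All 28 library pairs differed beyond sampling noise (chi-square test). The test was edgeR 4.0.16 (R 4.3.3) with its default low-count filter, TMM scaling, robust quasi-likelihood F tests and Benjamini-Hochberg adjustment over 15893 genes, with a threshold of 0.05. It was tested on simulated data. Log2 CPM used a prior count of 2. Alternatives used DESeq2 1.42.0, limma 3.58.1, other scalings and filters, a term for replicate number or number set, single transcripts, and 1 library left out.

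The members and lists were chosen with earlier results of these data known. Named genes are the 10 members, Ccna2, 6 partners, ligands or regulators (C1qb, C1qc, Itgb2, Spi1, Csf1, Il34), the 2 genes with the smallest adjusted p in each list (with none called, the most abundant), and the 3 genes most correlated with Ptprc and with C1qa at a mean log2 CPM of at least 1. Other genes named were chosen after their values were seen. A gene that this rule names is not reported here. Coordinates and promoters are from RefSeq GRCm38.p6, and transcript lengths from GENCODE on the same build. Proteins and the promoters of C1qa, Csf1r and Adgre1 are not used here.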

Additional observations from a re-analysis of the deposited data

How the results depend on the processing

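Of 155 log2 fold changes of single members under the alternatives, 121 kept their direction and their side of the threshold, 30 kept the direction and lost the call, and 4 changed sign, all of them of Csf1r, which was never called. RLE and upper quartile scaling, no filter and DESeq2 each gave 5 members lower and 1 higher, and the filter of 1 CPM, which removes Itgax, gave 4 and 1. Limma voom gave 3 lower, the library number set term 3 lower and 0 higher, and the test of single transcripts 0 genes lower and 0 higher. With replicate number in the fit (replicate block), 2 were lower, Vav1 and Lcp1 (edgeR adjusted p = 0.0159 and 0.0293), and 0 higher. Ptprc (0.0618), Laptm5 (0.104), Itgax (0.111) and Cd68 (0.0629) did not pass in that fit. Among these alternatives the share called over all genes is given only for the set term. Same-numbered libraries did not deviate together (correlations over genes of -0.35 to 0.15), and 1 of the 4 controls correlated best with its own number, so the numbers were not taken as pairs. With 1 library left out, 2 to 5 members were lower and 0 or 1 higher, in fits that hold fewer libraries. The cause of the changes under any of these alternatives was not tested. Of 352 list counts under the alternatives, 48 moved, either by more than 1.5 times or to or from 0. Adgre1 could not be fitted without control replicate 3, where it was below the filter. C1qa, Csf1r and Adgre1 had at most 43 counts in a library, which widens their counting intervals. Cd2, with 72 counts over all libraries, was called at a log2 fold change of -2.93 ± 0.43. Whether smaller changes could be called at such counts was not tested.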

Other observations

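Cd68 encodes a lysosomal membrane glycoprotein, so a list of 24 lysosomal genes was counted, chosen after its rise was seen and given without a test of the list. Of these, 23 were tested, of which 4 rose and 1 fell, with a median log2 fold change of 0.15; over all genes tested 6.40% rose and 5.71% fell. With the library number set in the fit, 6 rose and 2 fell, where that fit called 9.29% of all genes higher and 8.90% lower. The 4 were Ctsz (119 to 209 CPM, 0.82 ± 0.14, edgeR adjusted p = 0.00615), Gusb (23.5 to 51.1 CPM, 1.12 ± 0.21, adjusted p = 0.00902), Ctsd (268 to 360 CPM, 0.43 ± 0.09, adjusted p = 0.0150) and Lamp2 (129 to 173 CPM, 0.43 ± 0.10, adjusted p = 0.0258), which encode lysosomal enzymes and a membrane protein. Tfeb, a transcription factor of lysosomal genes, fell from 28.9 to 16.4 CPM (-0.81 ± 0.14, adjusted p = 0.00786). In 7 of the 23 all libraries labelled Ccna2-KO lay above all controls and in 1 all lay below, against 9.41% and 9.60% of all genes tested.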
